A study of Mus musculus with 6 samples.

Results

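The genes described here encode proteins of the lysosomal membrane and the proteins that sort enzymes to the lysosome. They were taken from the deposited table by symbol, from a list of 41 names, and all 41 were found among its 21719 genes. The cells were MPC5, a mouse podocyte line with conditional immortalisation, and RNA was read in 6 libraries that form 2 groups of 3. The control group is labelled Setdb2WT (genotype WT) and the other Setdb2KO (genotype KO), and both carry the treatment label high-glucose. Cells in normal glucose are not part of the comparison. The labels do not give the glucose concentration, the time in culture, how Setdb2 was edited, whether the knockout is a single clone, or whether replicate libraries stem from different cultures. P-values therefore measure the spread between these libraries, which may be technical.

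Lysosomes are acidic organelles that break down material delivered by endocytosis and autophagy. Their limiting membrane carries a coat of heavily glycosylated proteins, transporters that release the products of digestion, and channels and exchangers that set the ionic content. On its outer face the Ragulator complex holds Rag GTPases, which bring the growth regulator mTORC1 to the lysosome when amino acids are present. Enzymes reach the lumen through sorting receptors of the Golgi, many of them by a mannose 6-phosphate tag. Transcription factors of the MiT family (Tfeb, Tfe3, Mitf) bind E-box sequences at promoters of many lysosomal genes. Podocytes, the long-lived epithelial cells of the glomerular filter, depend on autophagy and lysosomal turnover.

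Libraries held 36461449 to 37129174 reads, and 84.6% of all genes tested did not overlap between the groups, so counts of called genes below are to be read against the shares over all genes. Setdb2 itself (Entrez 239122) had 12, 10 and 9 reads in Setdb2WT and 17, 15 and 25 in Setdb2KO, with a log2 fold change of 0.73 (SE 0.39) and an adjusted p of 0.0881 by edgeR (0.88 and 0.043 under total-count scaling). The edited gene was thus not lower in the libraries labelled Setdb2KO, and every direction below is that of the labels. Whether the edit removes the RNA is not given in the sources used here. Of 12 podocyte markers 10 were in the table, with a summed level of 1651 to 1652 CPM (counts scaled to a common library size) in Setdb2WT and 1438 to 1520 CPM in Setdb2KO. Among them Wt1, a defining transcription factor, had at most 2 reads in any library. Podxl fell 10.2-fold and Npnt 19.0-fold, whereas Cd2ap rose 1.53-fold. The part of these marker changes in the results below was not tested. In cultures read in bulk, fewer cells of a type and less RNA per cell cannot be told apart.

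Most lysosomal membrane and sorting genes were higher in the libraries labelled Setdb2KO. The 41 genes together held 0.306% to 0.307% of all reads in Setdb2WT and 0.663% to 0.677% in Setdb2KO. Abundant genes weigh most in this share. Lamp1 alone held 17408 to 18190 of the 112407 to 113836 reads of these genes per Setdb2WT library. In Setdb2KO it held 68957 to 72528 of 242365 to 247856. Enough reads for a test were found for 40 genes, all but Mcoln3. Of these 40 genes, 27 rose (67.5%, against 41.5% of all 13509 genes tested) and 9 fell (22.5%, against 42.3%), while 4 did not pass. The list was chosen with earlier results of these data known, so these shares are a description and not an independent test. A change was called at an adjusted p under 0.05 in edgeR's quasi-likelihood test over all genes. At least 2-fold rises numbered 16 (40%, against 16.4% of all genes), and at least 2-fold falls numbered 3 (7.5%, against 16.2%). The median log2 fold change was 0.76 over the 40 genes and 0.0045 over all genes tested. Reads were scaled by trimmed-mean (TMM) factors of 0.946 to 0.950 in Setdb2WT and 1.05 to 1.06 in Setdb2KO, so equal read numbers correspond to a slightly lower level in Setdb2KO. Scaling by total counts alone moved the median of all genes up by 0.15 on the log2 scale, and 30 of the 40 genes were then called higher and 7 lower, against 6550 and 4833 of the 13509 genes. The libraries of the groups did not overlap in 36 of the 40 genes, close to the share of 84.6% over all genes.

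**Figure D1:**
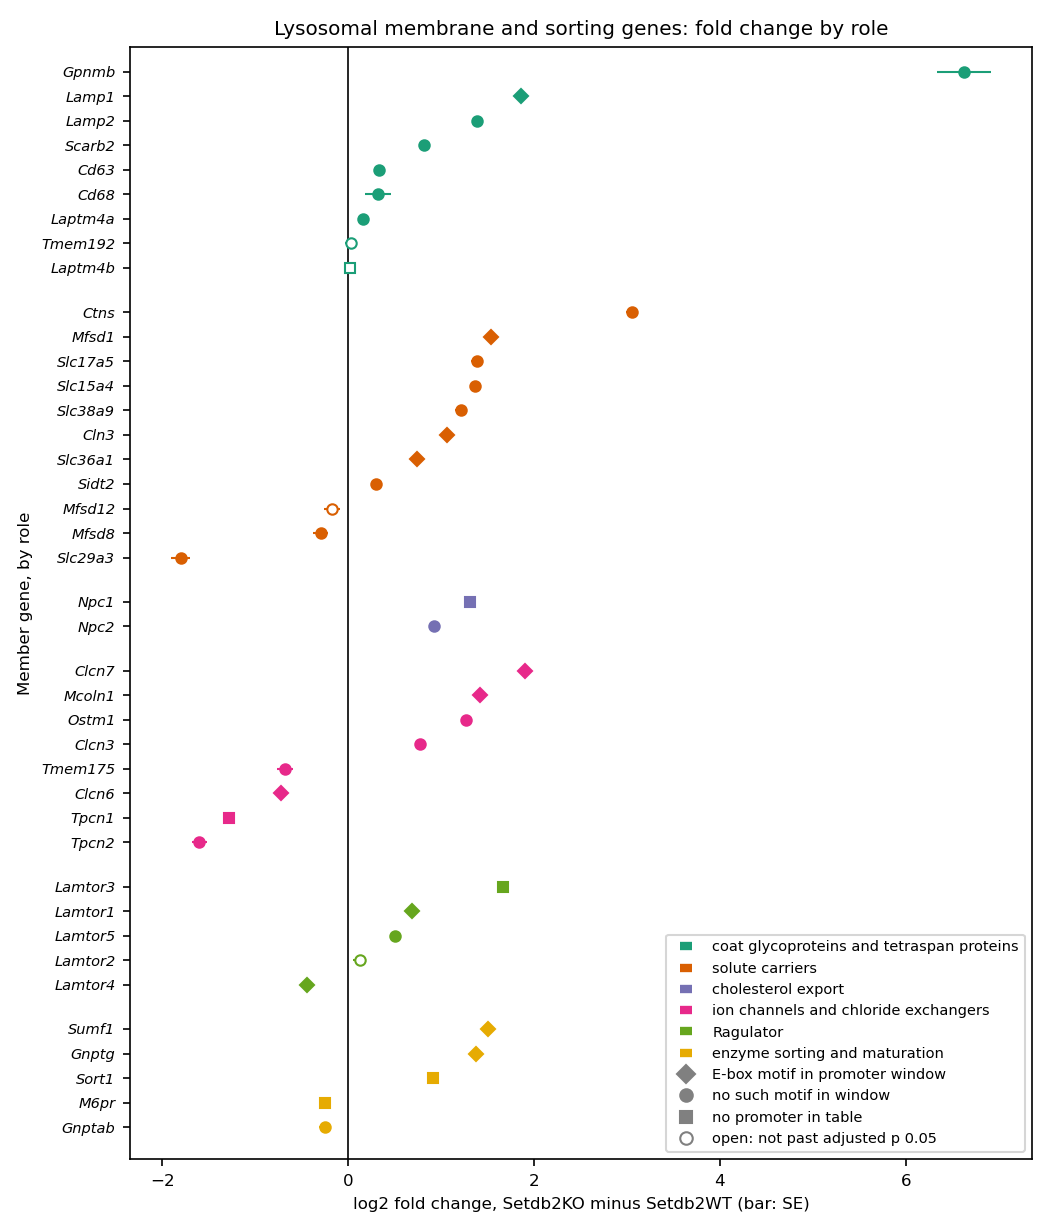
Log2 fold change of each of the 40 tested genes on the horizontal axis, grouped by role on the vertical axis, with bars for the SE. Diamonds mark genes with the E-box motif in their promoter window, circles those without, squares those with no promoter in the table, and open symbols the 4 genes that did not pass; Gpnmb at 6.63 and Ctns at 3.05 lie farthest right, and Slc29a3 at -1.80 farthest left.

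**Figure D2:**
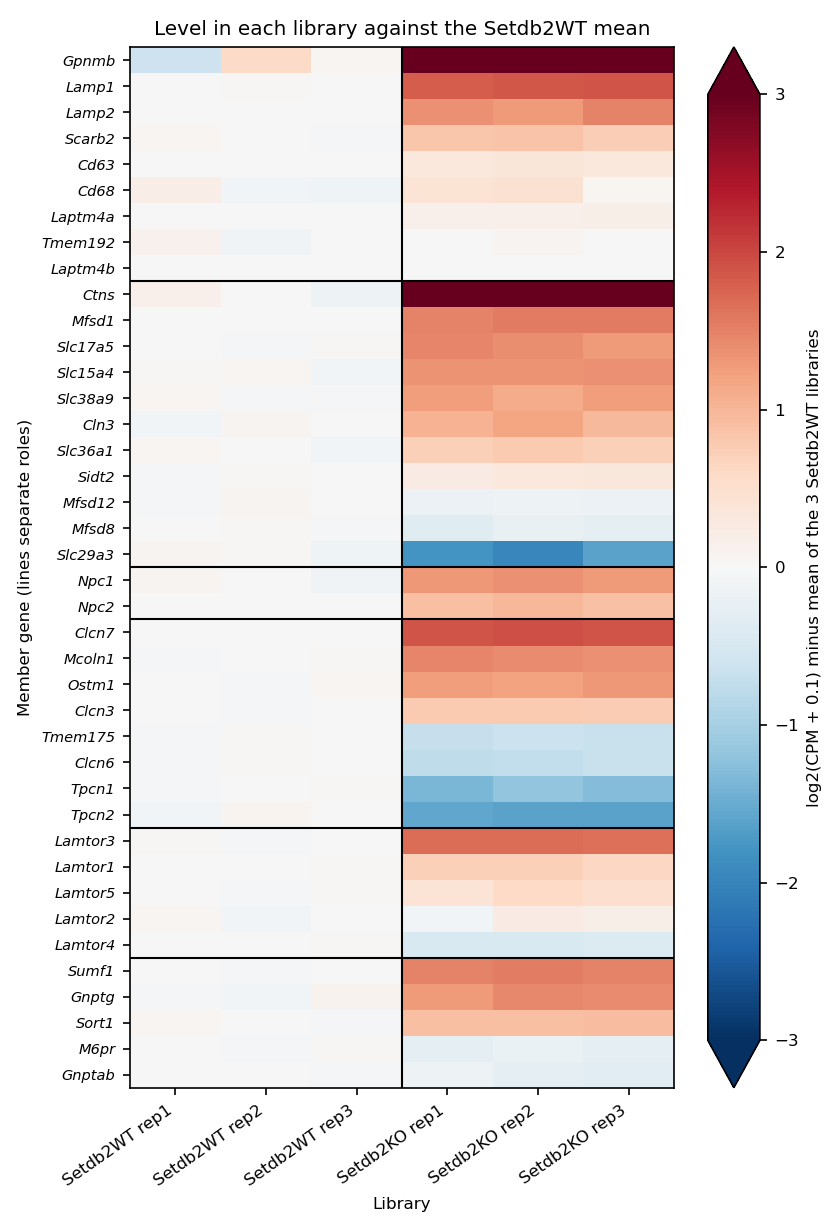
Level of each tested gene (rows) in each of the 6 libraries (columns), as log2(CPM + 0.1) minus the mean of the 3 Setdb2WT libraries; red is higher, blue lower, and the scale saturates at 3. The 3 Setdb2KO columns have the same colour in almost every row, and the deepest blue rows are Slc29a3, Tpcn2 and Tpcn1.

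Promoter windows were sought for all 41 genes, whatever their direction. RefSeq windows of 300 bases (250 before to 50 after the start of a transcript, GRCm38.p6) were found for 35 of the 41 genes, with 40 windows in all. They were searched on both strands for TCACGTG, an E-box with the flanking base that MiT factors favour; CACGTG, the core, is part of it. Of the 35 genes 11 held TCACGTG (31.4%), against 3.77% of all 32851 windows and 6.99% of the 10536 tested genes with a window. The motif was also frequent in the related lists described below. It was held by 15 of 72 other lysosomal membrane and sorting genes with a window (20.8%). In the list of MiT factors and Rag signalling 3 of 11 genes held it (27.3%). The same 11 of the 35 genes are those that held the core, which 7.15% of all windows and 11.6% of the tested genes with a window had. At least 2 copies in a window were found for 8 of the 35 genes, against 83 of the 10536 tested genes with a window. Of all windows 103 held at least 2 copies (0.314%). Only 4 windows of the whole table held it at least 4 times, and 2 of these belong to Lamp1 and Mfsd1.

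The windows below show the stretch from the first to the last motif before the start of the transcript, with 12 bases on each side of the CACGTG core or up to that start, in the direction of the gene. Capitals mark the motif on either strand. The first 6 belong to genes that rose and the last 2 to genes that fell, and both sets hold repeated copies. Clcn7 has a further copy after the start of the transcript, outside the stretch shown.
Lamp1 (chr8:13159088-13159160, plus strand): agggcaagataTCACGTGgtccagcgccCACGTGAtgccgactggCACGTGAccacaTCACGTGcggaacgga
Mfsd1 (chr3:67582670-67582767, plus strand): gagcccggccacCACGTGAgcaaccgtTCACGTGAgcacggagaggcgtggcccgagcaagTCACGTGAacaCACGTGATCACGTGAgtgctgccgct
Mcoln1 (chr8:3500436-3500491, plus strand): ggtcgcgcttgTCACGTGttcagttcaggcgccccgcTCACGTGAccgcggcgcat
Clcn7 (chr17:25133364-25133390, plus strand): tccgtcgtcagTCACGTGggcaccgat
Sumf1 (chr6:108185584-108185606, minus strand): agcaccacaggTCACGTGAtctc
Lamtor1 (chr7:101905757-101905786, plus strand): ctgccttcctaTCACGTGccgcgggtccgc
Clcn6 (chr4:148038821-148038873, minus strand): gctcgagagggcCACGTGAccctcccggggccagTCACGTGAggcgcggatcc
Lamtor4 (chr5:138255350-138255395, plus strand): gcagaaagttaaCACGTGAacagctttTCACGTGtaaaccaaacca

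The motif did not go with a single direction. Of the 11 genes that held it 9 rose (Lamp1, Mfsd1, Mcoln1, Clcn7, Sumf1, Lamtor1, Cln3, Slc36a1 and Gnptg) and 2 fell (Clcn6 and Lamtor4), with a median log2 fold change of 1.38. Of the 23 tested genes whose windows lacked it 15 rose and 5 fell, with a median of 0.34. The largest rises, those of Gpnmb and Ctns, were among the genes without it. Over all tested genes with a window, 736 held the motif, and 56.0% of them were higher and 31.1% lower, with a median of 0.29. Among the 9800 genes without it 40.1% were higher and 43.9% lower, with a median of -0.032. Where the motif occurred at least 2 times (83 genes), 67 were higher and 12 lower, with a median of 0.74. A match of letters is a description of the window, and binding was not measured. Motifs without the CACGTG core, and sequence outside the windows, were not searched for any gene.

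The coat proteins of the lysosomal membrane were mostly higher. Of 9 genes for coat glycoproteins and multi-span membrane proteins 7 rose (77.8%, against 41.5% of all genes tested), 0 fell (against 42.3%) and 2 did not pass. Lamp1 and Lamp2 encode the most abundant glycoproteins of the membrane. Lamp1 (Entrez 16783) had 17693, 18190 and 17408 reads in Setdb2WT and 68957, 71219 and 72528 in Setdb2KO. All 3 Setdb2KO libraries were far above all 3 Setdb2WT libraries. Its level went from 508 ± 7.8 to 1838 ± 54 CPM, a 3.62-fold rise (SD, n = 3 each; log2 fold change 1.86, SE 0.030, adjusted p = 1.9e-15 by edgeR). Lamp2 (Entrez 16784) had 7932, 8226 and 8046 reads against 22907, 21738 and 24855, again without overlap. Levels were 231 ± 3.3 and 600 ± 44 CPM, a 2.60-fold rise (adjusted p = 1.3e-12 by edgeR).

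Gpnmb (Entrez 93695), a glycoprotein of lysosomes and melanosomes that is also abundant in macrophages, had the largest change. It was close to absent in Setdb2WT, with 5, 16 and 10 reads, and had 1114, 1232 and 1074 reads in Setdb2KO. Mean levels were 0.295 ± 0.16 and 29.5 ± 2.0 CPM (SD, n = 3 each, log2 fold change 6.63, SE 0.29, adjusted p = 9.6e-14 by edgeR). Gpnmb passed the low-count filter only through Setdb2KO, so the size of its rise is uncertain. The ratio of the summed reads, 31 against 3420 and scaled by library size, was 100.1, with exact 95% Clopper-Pearson bounds of 70.4 and 148 for counting error alone. Of 12 macrophage markers 9 were in the table, and their summed level was 21.6 to 22.4 CPM in Setdb2WT and 11.1 to 12.5 CPM in Setdb2KO. Csf1r and Cd14 made up nearly all of it and fell 1.86-fold and 1.99-fold, Ptprc had 4, 5 and 5 reads against 0 in every Setdb2KO library, and Itgam had 0 against 12, 9 and 13 reads. Lyz2 had 1, 2 and 2 reads against 3, 5 and 3, and Aif1 had 1, 1 and 0 against 0, 6 and 2. The melanocyte list, with 4 of 8 genes in the table, had a summed level of 0.401 to 0.539 CPM in Setdb2WT and 0.646 to 1.27 CPM in Setdb2KO, most of it Pmel (11, 17 and 15 reads against 47, 25 and 27). What part such cells have in the rise was not tested.

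Scarb2, the receptor that carries glucocerebrosidase to lysosomes, rose 1.76-fold (adjusted p = 2.5e-10 by edgeR). The tetraspanin Cd63 rose 1.26-fold and the small membrane protein Laptm4a 1.12-fold (adjusted p = 6.2e-08 and 7.1e-05 by edgeR). An annotated pseudogene of Cd63 is not among the deposited genes, so whether any of its reads count to Cd63 cannot be told. Cd68, a LAMP-family protein of macrophages, had 181, 150 and 142 reads against 233, 239 and 180. Its groups overlapped, since the third Setdb2KO library had fewer reads than the first Setdb2WT library. The rise of 1.25-fold passed narrowly (adjusted p = 0.0486 by edgeR) and did not pass in DESeq2 (adjusted p = 0.0503), in limma-voom (adjusted p = 0.0626), without the low-count filter (adjusted p = 0.0638), or without Setdb2WT replicate 2 or 3 or Setdb2KO replicate 1 or 2 (adjusted p 0.131 to 0.186 by edgeR). Laptm4b, the close relative of Laptm4a, had 3958, 4061 and 3921 reads against 4443, 4457 and 4413, and Tmem192 had 1140, 980 and 1030 against 1163, 1219 and 1166. Scaled for library size, both sets of libraries overlapped. Neither gene passed, with log2 fold changes of 0.016 (SE 0.032) and 0.031 (SE 0.062), but under total-count scaling both were called higher, by 0.17 and 0.18 on the log2 scale (adjusted p = 2.1e-04 and 0.0129 by edgeR).

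Among 11 solute carriers of the membrane 8 rose (72.7%, against 41.5% of all genes tested), 2 fell (18.2%, against 42.3%) and 1 did not pass. Ctns (Entrez 83429) encodes cystinosin, the exporter of cystine whose loss causes cystinosis, a storage disease that damages the kidney. It had 506, 455 and 409 reads in Setdb2WT and 4255, 4194 and 4093 in Setdb2KO. The groups were far apart, with 13.0 ± 1.4 and 108 ± 1.7 CPM, an 8.30-fold rise (SD, n = 3 each, log2 fold change 3.05, SE 0.061, adjusted p = 9.7e-15 by edgeR). Mfsd1, an exporter of dipeptides, had 4963, 5031 and 4950 reads against 15568, 16356 and 15968. The rise was 2.91-fold, with 142 ± 0.36 and 414 ± 10.2 CPM (adjusted p = 1.2e-14 by edgeR). Slc15a4, which carries histidine and small peptides, had 1444, 1485 and 1341 reads against 4033, 4035 and 4018. This rise was 2.57-fold (adjusted p = 8.0e-13 by edgeR). Of the exon bases of Slc15a4 15.6% are shared with Gm43474 on the opposite strand.

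The other carriers that rose did so by 1.23-fold to 2.62-fold. Slc17a5, the sialic acid exporter sialin, rose 2.62-fold, and Slc38a9, the transporter that reports arginine to mTORC1, 2.32-fold. Cln3, whose loss causes a juvenile storage disease of neurons, rose 2.09-fold, and Slc36a1, a proton-coupled amino acid transporter, 1.67-fold. Sidt2, implicated in nucleic acid uptake by lysosomes, rose 1.23-fold. In edgeR's test the adjusted p of these 5 genes lay between 1.4e-10 and 3.9e-06, and the groups of each did not overlap. Of the exon bases of Cln3 13.2% are shared with Apobr on the opposite strand, which rose 1.21-fold. For Sidt2 12.4% are shared with A830035O19Rik, also on the opposite strand.

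Slc29a3, the nucleoside transporter of lysosomes, went the other way. It had 667, 644 and 570 reads in Setdb2WT and 198, 174 and 222 in Setdb2KO, with no overlap. The fall was 3.49-fold, with 17.9 ± 1.4 CPM in Setdb2WT and 5.13 ± 0.65 CPM in Setdb2KO (SD, n = 3 each, log2 fold change -1.80, SE 0.10, adjusted p = 6.5e-10 by edgeR). Mfsd8, which is mutated in another neuronal storage disease, had 415, 429 and 406 reads against 355, 394 and 373. It fell 1.23-fold (adjusted p = 0.00368 by edgeR), a call lost under total-count scaling (adjusted p = 0.114). Mfsd12, needed for cysteine import into lysosomes, had 335, 372 and 345 reads against 341, 348 and 337. With a log2 fold change of -0.18 (SE 0.085) it did not pass (adjusted p = 0.0661 by edgeR), though it did without Setdb2WT replicate 1 (adjusted p = 0.0435). Of the exon bases of Mfsd12 17.5% overlap genes on the opposite strand, among them Fzr1, which was more abundant and fell 1.83-fold.

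Both genes for the proteins that hand cholesterol out of the lysosome rose, as did 41.5% of all genes tested. Npc2 binds cholesterol in the lumen and passes it to Npc1 in the membrane, and loss of either causes Niemann-Pick disease type C. Npc1 had 1671, 1605 and 1465 reads in Setdb2WT and 4296, 4490 and 4173 in Setdb2KO. Npc2 had 4965, 4945 and 4891 reads against 10150, 10893 and 9900. Neither pair of groups overlapped, and the rises were 2.48-fold for Npc1 and 1.90-fold for Npc2 (adjusted p = 4.9e-12 and 1.2e-11 by edgeR).

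Channels and exchangers divided evenly. Of 8 tested genes 4 rose and 4 fell (50% each, against 41.5% and 42.3% of all genes tested). Clcn7 (Entrez 26373), the chloride-proton exchanger of lysosomes, had 1612, 1638 and 1621 reads in Setdb2WT and 6698, 6824 and 6544 in Setdb2KO. The groups did not overlap, and mean levels of 46.4 ± 0.25 and 173 ± 2.9 CPM gave a 3.74-fold rise (SD, n = 3 each, log2 fold change 1.90, SE 0.034, adjusted p = 4.6e-15 by edgeR). Ostm1, the subunit that stabilises Clcn7, rose 2.40-fold (adjusted p = 1.1e-11 by edgeR). Clcn3, an exchanger of endosomes, rose 1.71-fold (adjusted p = 1.2e-11 by edgeR). The late endosomal relative Clcn6 had 1861, 1965 and 1907 reads against 1250, 1262 and 1311, and fell 1.65-fold (adjusted p = 2.5e-09 by edgeR).

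Cation channels changed in both directions. Mcoln1 (Entrez 94178), which releases calcium from lysosomes and is mutated in mucolipidosis type IV, had 1295, 1311 and 1352 reads in Setdb2WT and 3999, 3891 and 3740 in Setdb2KO. A 2.66-fold rise separated 37.7 ± 1.0 CPM from 100.5 ± 3.0 CPM (SD, n = 3 each, adjusted p = 5.1e-13 by edgeR). Tpcn1 and Tpcn2 encode the TPC cation channels of endosomes and lysosomes. Tpcn1 had 4178, 4389 and 4400 reads against 1855, 2096 and 1916, and fell 2.44-fold (log2 fold change -1.29, SE 0.046, adjusted p = 4.1e-12 by edgeR). Tpcn2 had 632, 721 and 671 reads against 250, 244 and 241, and fell 3.03-fold (log2 fold change -1.60, SE 0.081, adjusted p = 1.7e-10 by edgeR). In both TPC genes all Setdb2KO libraries lay below all Setdb2WT libraries. Tmem175, a potassium and proton channel, had 365, 392 and 381 reads against 258, 266 and 261. It fell 1.60-fold (adjusted p = 4.8e-06 by edgeR), but 42.8% of its exon bases overlap Dgkq on the opposite strand, which fell 1.69-fold, and the reads of the pair cannot be told apart where they overlap. Mcoln3, a relative of Mcoln1, had 1 read in a single Setdb2WT library and 0 in the other 5, so it was listed at or near 0 in both groups and no fold is given.

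Of 5 Ragulator subunits 3 rose (60%, against 41.5% of all genes tested), 1 fell (20%, against 42.3%) and 1 did not pass. Lamtor1 anchors the complex in the membrane, and Lamtor2 with Lamtor3 and Lamtor4 with Lamtor5 form its paired inner subunits. Lamtor3 (Entrez 56692) had 2420, 2332 and 2375 reads in Setdb2WT and 8348, 8359 and 8172 in Setdb2KO. The rise, without overlap, was 3.17-fold, with 67.9 ± 1.6 and 215 ± 1.7 CPM (SD, n = 3 each, log2 fold change 1.66, SE 0.033, adjusted p = 1.2e-14 by edgeR). Lamtor1 had 2281, 2276 and 2328 reads against 4197, 4150 and 3889, and Lamtor5 had 1942, 1898 and 1962 against 2824, 3251 and 2988. These rose 1.61-fold and 1.42-fold (adjusted p = 5.9e-10 and 3.5e-07 by edgeR). Lamtor4 had 1213, 1216 and 1249 reads against 992, 993 and 1006. It fell 1.36-fold (log2 fold change -0.44, SE 0.051, adjusted p = 1.6e-06 by edgeR). Lamtor2 had 1386, 1282 and 1347 reads against 1407, 1769 and 1645, and after scaling its groups overlapped. With a log2 fold change of 0.12 (SE 0.073) it did not pass (adjusted p = 0.129 by edgeR), whereas it did under total-count scaling (adjusted p = 0.00252) and without Setdb2KO replicate 1 (adjusted p = 0.00576).

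Of 5 genes of enzyme sorting and maturation 3 rose (60%, against 41.5% of all genes tested) and 2 fell (40%, against 42.3%). Sumf1 (Entrez 58911), which activates the sulfatases before they leave the endoplasmic reticulum, had 1497, 1466 and 1504 reads in Setdb2WT and 4621, 4790 and 4610 in Setdb2KO. Mean levels were 42.5 ± 0.86 and 121 ± 2.3 CPM, a 2.85-fold rise (SD, n = 3 each, adjusted p = 9.5e-14 by edgeR). Sort1, the sorting receptor sortilin, had 1389, 1340 and 1297 reads against 2773, 2779 and 2790 and rose 1.88-fold (adjusted p = 6.7e-11 by edgeR). Gnptg and Gnptab encode subunits of the enzyme that starts the mannose 6-phosphate tag, Gnptab the catalytic ones and Gnptg an accessory one. Gnptg had 492, 480 and 536 reads against 1348, 1507 and 1470, and rose 2.60-fold (adjusted p = 1.2e-10 by edgeR). Of its exon bases 49.5% overlap Unkl on the opposite strand, and Unkl rose 1.33-fold. Gnptab had 1004, 1010 and 972 reads against 987, 896 and 882. It fell 1.19-fold (adjusted p = 0.00124 by edgeR), a call lost under total-count scaling (adjusted p = 0.142). M6pr, the smaller of the mannose 6-phosphate receptors, had 7639, 7582 and 7849 reads against 6988, 7363 and 7042. It also fell 1.19-fold (adjusted p = 7.6e-06 by edgeR), or by 0.096 on the log2 scale under total-count scaling (adjusted p = 0.0147). A pseudogene of M6pr is likewise annotated but not among the deposited genes, and whether its reads count to M6pr cannot be told. Igf2r, the larger mannose 6-phosphate receptor and not in the list of 41, had 5136, 5141 and 5077 reads against 14252, 14887 and 13740 and rose 2.53-fold (adjusted p = 9.4e-14 by edgeR). It is given here after its values were seen.

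Ratios of reads within a library do not depend on how libraries are scaled, and 14 pairs of related genes, chosen after the fold changes were seen, were compared in this way. In each pair the 3 libraries of a group lay apart from the other 3, and the exact permutation test then gives its smallest possible two-sided p, 0.1 (0.1 after adjustment over the 14 pairs). Because the pairs were chosen on the same values, this test adds nothing to the ratios themselves. Reads of Clcn7 were 0.834 to 0.866 times those of Clcn6 in Setdb2WT and 4.99 to 5.41 times in Setdb2KO. For Mcoln1 over Tpcn1 the ratio was 0.299 to 0.310 in Setdb2WT and 1.86 to 2.16 in Setdb2KO. The ratio of Gnptg to Gnptab moved from 0.506 ± 0.040 to 1.57 ± 0.18 and that of Sort1 to M6pr from 0.175 ± 0.0085 to 0.390 ± 0.011 (SD, n = 3 each). Within Ragulator, Lamtor3 over Lamtor2 moved from 1.78 ± 0.038 to 5.21 ± 0.64 and Lamtor5 over Lamtor4 from 1.58 ± 0.021 to 3.03 ± 0.22. Smaller shifts were seen for Laptm4a over Laptm4b (2.62 ± 0.046 to 2.91 ± 0.0034) and for Npc1 over Npc2 (0.320 ± 0.019 to 0.419 ± 0.0060). Tpcn2 over Tpcn1 went from 0.156 ± 0.0072 to 0.126 ± 0.0092.

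**Figure D3:**
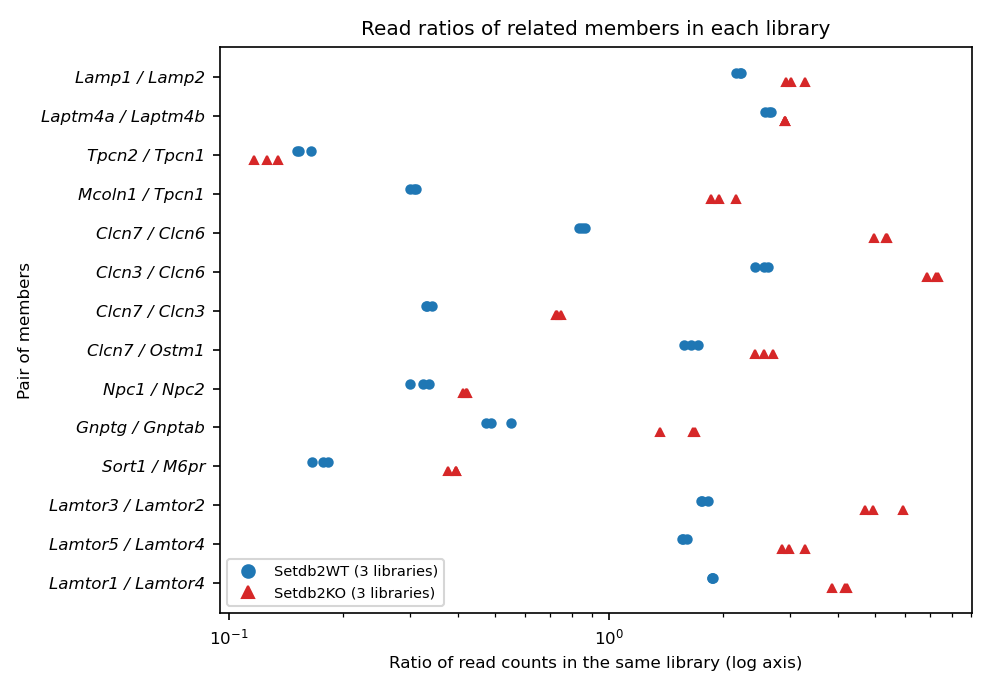
Ratio of the read counts of 14 pairs of related genes (vertical axis) in each library, on a log axis; blue circles are the 3 Setdb2WT libraries and red triangles the 3 Setdb2KO libraries. Clcn7 over Clcn6 and Mcoln1 over Tpcn1 lie farthest apart between the groups, about 0.850 against 5.25 and 0.305 against 1.99 on average.

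Levels were compared between genes per kilobase of exon, with exon lengths from GENCODE M21 on GRCm38, which is not the annotation of the counts. Lamp1, Cd63 and Laptm4a were highest in Setdb2WT, at 228 ± 3.5, 198 ± 2.2 and 168 ± 1.1 CPM per kb (SD, n = 3 each), and the order of these 3 held in Setdb2KO, at 824 ± 24, 250 ± 3.8 and 188 ± 0.0081 CPM per kb. M6pr had rank 4 in Setdb2WT and rank 10 in Setdb2KO, at 86.6 ± 2.1 and 72.8 ± 1.9 CPM per kb. Rank 4 in Setdb2KO was held by Lamtor3, at 51.6 ± 1.2 CPM per kb in Setdb2WT and 163 ± 1.3 in Setdb2KO. In Setdb2WT its neighbours Lamtor2 (52.1 ± 2.3) and Lamtor1 (48.0 ± 0.89) differed from it by little, and the value of Lamtor2 by less than its SD. Ctns moved from rank 32 to rank 15 of the 41 genes, with 4.79 ± 0.50 and 39.8 ± 0.61 CPM per kb. Tpcn1 moved from rank 15 to rank 28, with 26.2 ± 0.76 and 10.8 ± 0.67 CPM per kb.

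**Figure D4:**
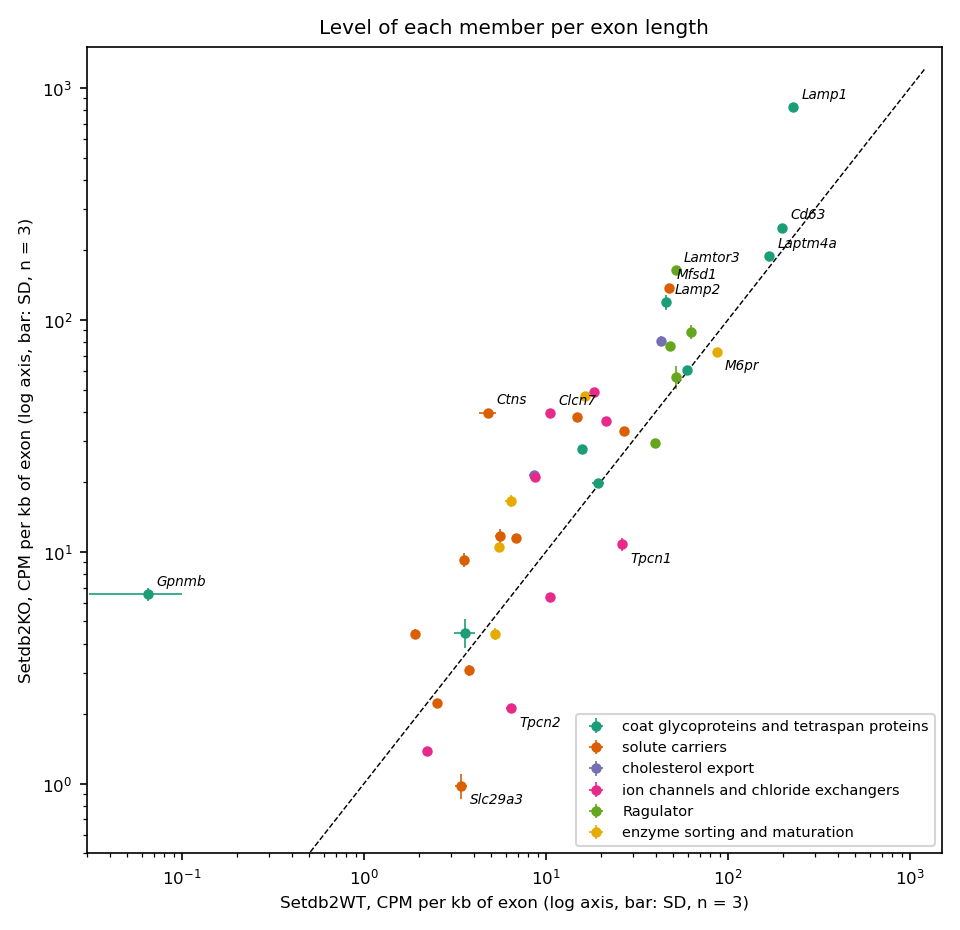
Mean level of the 40 tested genes in Setdb2WT (horizontal) and Setdb2KO (vertical), in CPM per kb of exon on log axes, with bars for the SD over 3 libraries, colours for roles and a dashed line of equality. Lamp1 is at the top right, Gpnmb stands alone at the left with 0.0653 against 6.54, and Tpcn1, Tpcn2 and Slc29a3 lie below the line.

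Other genes of the lysosomal membrane and of sorting changed in both directions. From a list of 87, 82 were in the table and 79 were tested. Rises numbered 43 (54.4%, against 41.5% of all genes tested) and falls 22 (27.8%, against 42.3%), and 14 genes missed the threshold. Their median log2 fold change was 0.29, and scaling by total counts gave 51 rises and 17 falls (6550 and 4833 over the 13509 genes). The largest rises among those above a mean of 1 CPM over both groups were Abcb9, a peptide transporter (7.63-fold), Mfsd11 (5.11-fold) and Slc49a4 (4.98-fold). Abcb9 had only 3, 11 and 14 reads in Setdb2WT, against 83, 64 and 91 in Setdb2KO. With 0.267 and 2.06 CPM it passed that limit only through Setdb2KO, so its fold and its place in this order are uncertain. The largest falls were Borcs7, a subunit of the BORC complex that positions lysosomes (2.88-fold), Cln6, an endoplasmic reticulum protein of enzyme export (2.72-fold), and Abcd4, which takes part in release of vitamin B12 from lysosomes (2.41-fold). The retromer subunits Vps26a, Vps29 and Vps35, which return sorting receptors from endosomes to the Golgi, rose 3.10-fold, 2.46-fold and 2.16-fold, and are named after their values were seen. These 9 genes had adjusted p between 1.9e-14 and 3.7e-06 in edgeR's test.

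**Figure D5:**
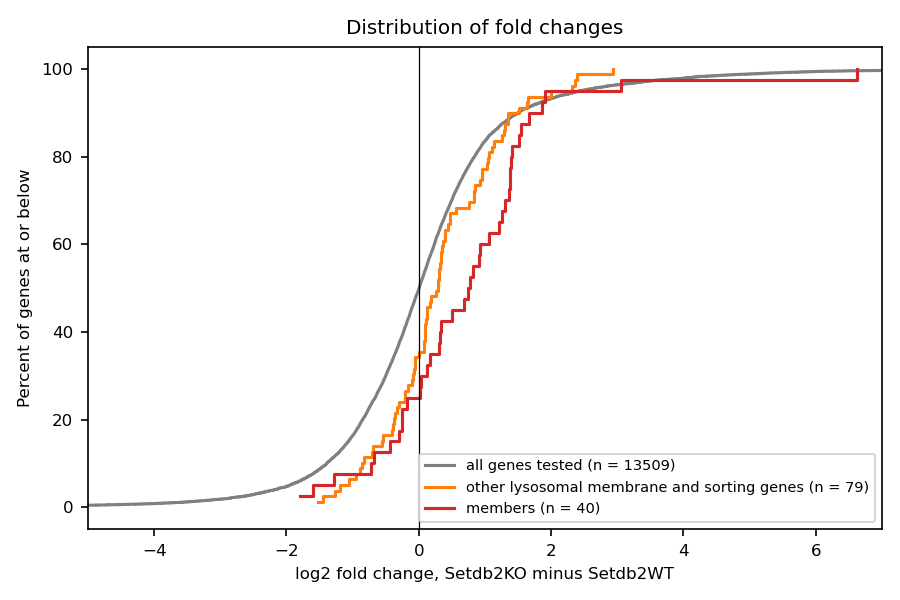
Percent of genes (vertical) at or below each log2 fold change (horizontal) for the 13509 genes tested, the 79 tested genes of the wider list and the 40 lysosomal membrane and sorting genes. The medians are 0.0045, 0.29 and 0.76, and above a log2 fold change of 2 the curve of the 40 genes rests on Ctns and Gpnmb alone.

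The transcription factors and GTPases that act with these proteins changed unevenly. Of 10 tested genes of the MiT and Rag list 7 rose (70%, against 41.5% of all genes tested) and 3 fell (30%, against 42.3%), with a median log2 fold change of 1.15. With total counts as the scale 7 rose and 1 fell (6550 and 4833 over the 13509 genes). Tfe3 fell 1.15-fold (adjusted p = 6.0e-04 by edgeR), a call lost under total-count scaling (adjusted p = 0.282). Tfeb fell 1.13-fold and passed narrowly (adjusted p = 0.0495 by edgeR). That call was lost under DESeq2's test, the 3 other scalings and the filter at 1 CPM (adjusted p 0.0657 to 0.815), and without any Setdb2WT replicate or Setdb2KO replicate 1 or 3 (adjusted p 0.053 to 0.169). Mitf, given after its values were seen, rose 1.64-fold (adjusted p = 2.2e-04 by edgeR). Rragd, a Rag GTPase that binds Ragulator, had 5, 5 and 4 reads in Setdb2WT and 542, 565 and 579 in Setdb2KO, or 0.133 ± 0.016 and 14.6 ± 0.54 CPM (SD, n = 3 each, adjusted p = 1.1e-13 by edgeR). It passed the low-count filter and the naming limit of 1 CPM only through Setdb2KO, so the size of its rise is uncertain. Flcn and Fnip1, partners in the complex that acts on the Rag GTPases Rragc and Rragd, rose 5.35-fold and 6.01-fold, and Rraga fell 1.23-fold.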

How the data were processed

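The authors deposited raw read counts per gene, 1 column for each of 6 libraries. Per the submitters' processing notes, fastp, HISAT and HTSeq were used with GRCm39. Software versions, gene models and the use of strand were not given in the sources used here, so antisense partners cannot be told apart, and 6 of the 41 genes share over 10% of their exon bases with a gene on the opposite strand. Per the labels' protocols, TRIzol served for total RNA and a VAHTS kit for the libraries.

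The counts were tested with edgeR 4.0.16 (R 4.3.3): the quasi-likelihood F test with TMM scaling, a model of genotype alone, filterByExpr at a minimum count of 10, and Benjamini-Hochberg adjustment over 13509 genes at 0.05. CPM values use the TMM factors. The scripts were tested on simulated data with 50 altered genes per fold size among 12869: 23 were recovered at 1.2-fold, 43 at 1.5-fold and 50 at 2-fold. Of the unaltered genes 9 were called. The simulation gave both groups the same spread and altered few genes, unlike the real libraries, so these shares need not hold for them. Replicate libraries differed beyond counting noise (chi-square per degree of freedom 2.51 to 2.65 in Setdb2WT and 4.22 to 14.8 in Setdb2KO), and each counted as a replicate.

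The 41 genes and all lists were chosen with earlier results of these data known. Reads per library are given for the 3 smallest adjusted p in each role, for changes of at least 4-fold, for falls and for genes that did not pass. From other lists, up to 3 genes per direction with the largest change and a mean of at least 1 CPM were named, of which some are shown. Alternatives were other scalings, DESeq2 1.42.0, limma-voom (limma 3.58.1), other filters, the replicate number as a block, glmTreat and leaving out each library. Promoter windows come from RefSeq on GRCm38.p6.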

Additional observations from a re-analysis of the deposited data

How the results depend on the processing

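Over 15 alternatives, 26 of the 40 tested genes kept their direction and their side of the threshold in each. The direction turned for Laptm4b without Setdb2WT replicate 1 (log2 fold change -0.0011) or replicate 3 (-0.0051) and for Tmem192 without Setdb2WT replicate 2 (-0.038). Without each library in turn, Laptm4b ran from -0.0051 to 0.0197 and Tmem192 from -0.0383 to 0.0801, none of them past the threshold. With glmTreat against a 1.5-fold limit, which asks for larger changes, 26 of the 40 were called, 22 higher and 4 lower. It called 6137 of all genes (3019 higher, 3118 lower), 36 of the wider list (25 higher, 11 lower) and 6 of the MiT and Rag list, with 0 lower (0 at an unadjusted p under 0.05, against 2 by DESeq2 and 3 by limma-voom). Under total-count scaling 1 of that list was lower, and Setdb2 passed (log2 fold change 0.88, adjusted p = 0.043; 0.0791 to 0.335 under the other alternatives that kept it). Leaving out each library gave 35 to 37 changed of the 40. With the replicate number as a block 36 were called, 27 higher and 9 lower, and Setdb2 stood at 0.72 (adjusted p = 0.141). The numbers did not pair the libraries (correlation of deviations -0.042 to -0.0019), and the block moved no count of calls by more than 1.5 times. It ended the call of Tfeb (adjusted p = 0.053) and of none of the 40 genes. In the wider list 62 genes were called with the block, against 65 without it. Depth limits statements on Gpnmb, Abcb9 and Rragd in Setdb2WT, on Mcoln3 and on Setdb2, which had few reads.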
